A study of Mus musculus with 15 samples.

Results

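The ion channels that set the membrane voltage and calcium entry of adrenal cortex cells were followed through dexamethasone suppression and recovery of the mouse adrenal gland. The list held 9 genes: the tandem-pore potassium channels Kcnk1, Kcnk2, Kcnk3, Kcnk5 and Kcnk9, the inward rectifier potassium channel Kcnj5, the calcium channels Cacna1d and Cacna1h, and the sodium pump subunit Atp1b1. Members were the probe sets annotated to 1 of these symbols, and there were 10 among the 32736 probe sets of the array. Of these, 8 carried 1 listed gene alone and stood for 8 genes among 21439, and counts of members that passed a test are over these 8 genes. The other 2 were annotated to both Kcnk3 and the long non-coding RNA Gm9899, so that no level could be given to Kcnk3 by itself.

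RNA from whole adrenal glands of wild type C57BL/6J male mice, labelled as 6 weeks old, was hybridised to 15 one-colour arrays. The control group held 4 arrays from mice that had not yet received dexamethasone, and the other groups had all received it in the drinking water for 14 days. The withdrawal group of 3 arrays was taken when the drug was stopped, and the day 3 and day 7 groups of 4 arrays each were taken 3 and 7 days later. Dexamethasone is a synthetic glucocorticoid that lowers pituitary ACTH, and the series was made to follow how the gland regenerates afterwards. Arrays are titled as biological replicates, and the labels do not say whether glands of several mice were pooled. Because the control glands predate the drug, its effect and the passage of days cannot be told apart where control is compared.

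As background, cells of the zona glomerulosa, the outer cortical layer that makes aldosterone, are held at a very negative voltage by potassium channels that stay open at rest. Angiotensin II or a rise in blood potassium brings the voltage up, voltage-gated calcium channels open, and calcium acting through calmodulin kinases raises the aldosterone synthase Cyp11b2. In human patients, mutations of KCNJ5, CACNA1D and CACNA1H, and of the sodium pump, are known from aldosterone-producing tumours or inherited aldosterone excess.

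Of the 8 genes with a probe set of their own, Kcnk5 and Atp1b1 passed the test at withdrawal. The stretch before the start of each is shown here for that reason. Shared probe set 17435811 was lower at withdrawal in a separate fit of all probe sets, given below. The sequences are the 250 bases before the RefSeq start in build GRCm38.p6, both on the minus strand, at chr14:20181783-20182032 for Kcnk5 and chr1:164458356-164458605 for Atp1b1. Capitals mark the GC box GGGCGG on either strand.
Kcnk5: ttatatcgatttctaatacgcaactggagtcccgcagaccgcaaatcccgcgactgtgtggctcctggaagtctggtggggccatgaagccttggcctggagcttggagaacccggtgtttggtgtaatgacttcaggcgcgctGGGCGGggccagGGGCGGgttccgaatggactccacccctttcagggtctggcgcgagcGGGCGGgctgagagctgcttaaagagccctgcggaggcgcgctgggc
Atp1b1: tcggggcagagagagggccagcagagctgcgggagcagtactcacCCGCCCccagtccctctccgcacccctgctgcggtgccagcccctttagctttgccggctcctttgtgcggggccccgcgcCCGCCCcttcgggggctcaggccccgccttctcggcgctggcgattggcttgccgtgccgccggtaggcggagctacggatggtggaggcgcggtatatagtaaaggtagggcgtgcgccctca
Kcnk5 held 3 GC boxes, all on the strand of the gene, and Atp1b1 held 2, both on the opposite strand; 35.66% of 32851 promoter windows of 300 bases (250 before and 50 after a start) held at least 1. No other motif searched was found in either 300-base window on either strand: the cyclic AMP response element TGACGTCA or its part TGACG, the NR5A1 site CAAGGTCA, the NR4A site AAAGGTCA, the glucocorticoid receptor half-site AGAACA, the TCF site ATCAAAG and the TATA box TATAAA. Their shares among all windows were 1.79%, 20.81%, 1.559%, 1.507%, 18.97%, 3.729% and 13.62%. Only these exact letters were searched, so a site of other letters, such as a variant TATA box, would be missed. Promoters were listed for 6 of the 9 members, with Kcnk3, Kcnk9 and Cacna1h absent from the list.

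The values are log2 levels after robust multi-array averaging (RMA). The median of all probe sets on all arrays was 1.60, taken here as the array floor, and a group mean up to 1 log2 unit above it, to 2.60, is called near the floor. As a second reference, the 95th percentile of the mean level of 1085 olfactory receptor genes, which are silent in most tissues, was 1.36. Kcnj5, which encodes a G protein-gated inward rectifier, was the 1 member at the floor in all 4 groups. The other 7 genes and both shared probe sets had every group mean above the near-floor limit. A difference in a whole gland cannot tell fewer cells of a type from less RNA per cell, and levels of different probe sets are not compared with each other.

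**Figure D1:**
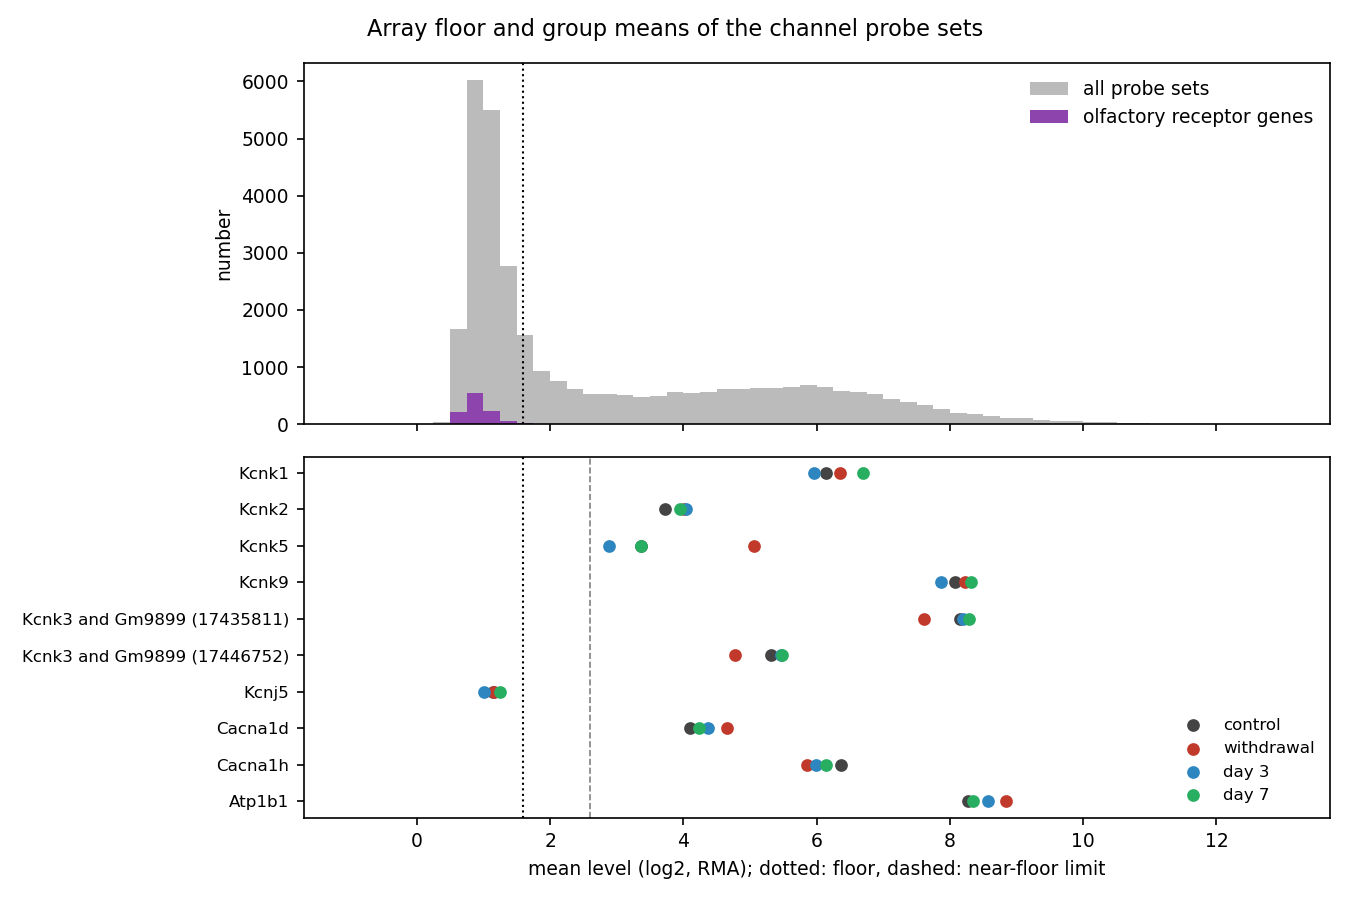
The upper panel counts all probe sets and the olfactory receptor genes by mean log2 level, and the lower panel shows the group means of each channel probe set on the same axis. Kcnj5 lies left of the dotted floor at 1.60 in all 4 groups, within the levels of the olfactory receptors, and all other means lie right of the dashed limit at 2.60.

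At withdrawal the potassium channel Kcnk5 and the sodium pump subunit Atp1b1 were higher than in control, and the remaining 6 of 8 measured members did not pass the test. The 2 probe sets shared with Gm9899 are outside this count and are given below. Thus 2 of 8 were higher, against 2.49% of all genes. That share counts many dim genes, as the median of the gene means was 2.44, under the near-floor limit. With dim genes left out, 1238 of the smaller set of genes passed, 712 of them higher. The size of that set is not given here, so its share cannot be set beside the members. The members were chosen with earlier results of these data known. Kcnk5 was 3.22-fold and Atp1b1 1.49-fold higher by group means. Of all 21439 genes, 4.30% passed in this comparison by the same test, 534 higher and 387 lower (limma, Benjamini-Hochberg adjusted p under 0.05), and the median of the 8 members was 0.25 log2 against -0.01 for all genes. With each array centred on its median that split was 341 higher and 853 lower, a shift of -0.11 in the median of all genes, and after quantile normalization it was 421 and 462. The groups did not overlap for 3 of 8 members, against 15.1% of all genes.

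Kcnk5 encodes TASK-2, a potassium channel opened by alkaline conditions outside the cell. In the control arrays 1 to 4 its level was 3.27, 3.32, 4.14 and 2.74. In the withdrawal arrays it was 5.22, 5.26 and 4.68, so that the lowest withdrawal array lay above the highest control. The level at day 3 was 3.61, 2.35, 3.14 and 2.43, below every withdrawal array, with 2 arrays under the near-floor limit. At day 7 it was 2.78, 3.53, 3.93 and 3.23, in the range of the controls.

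The rise of Kcnk5 from 3.36 ± 0.58 (SD, n = 4) to 5.05 ± 0.32 (n = 3) was 1.69 ± 0.35 log2 (SE; limma, adjusted p = 0.013). It then fell to 2.88 ± 0.60 (n = 4) at day 3, a difference of -2.17 ± 0.35 or 4.50-fold (limma, adjusted p = 0.00462). At day 7 it stood at 3.37 ± 0.49 (n = 4), 1.69 ± 0.35 log2 below withdrawal (limma, adjusted p = 0.0227). Day 3 and control differed by -0.48 (95% interval -1.17 to 0.21), and day 7 and control by 0.00 (-0.69 to 0.70), neither past the threshold. The groups therefore stood in the order withdrawal, day 7, control and day 3, and only withdrawal differed from the rest beyond the spread. Kcnk5 was the 1 member of 8 that passed the F test over all 4 groups (adjusted p = 0.0132), which 2.63% of all genes passed.

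Kcnk5's fall to day 3 held in each of the 7 fits that left out an array of the groups compared. The rise at withdrawal had an adjusted p of 0.0528 without withdrawal replicate 1 and 0.0635 without withdrawal replicate 2, with differences of 1.61 and 1.58. The difference of day 7 from withdrawal had an adjusted p of 0.0826 and 0.099 without those arrays, 0.0711 without day 7 replicate 1 and 0.0632 without day 7 replicate 4. The F test was passed by 0 members when either of these withdrawal arrays was left out.

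Kcnk9 encodes TASK-3, a tandem-pore channel that carries background potassium current in rodent glomerulosa cells. Its control arrays lay close together at 8.02, 8.16, 8.10 and 8.04. Withdrawal arrays were at 7.88, 8.27 and 8.50, on both sides of the controls. At day 3 the level was 8.20, 7.83, 7.81 and 7.62, and at day 7 it was 8.24, 8.28, 8.23 and 8.52. Every day 7 array lay above every control and every day 3 array. The day 7 mean was 0.24 ± 0.14 log2 above the control mean and 0.45 ± 0.14 above the day 3 mean, and neither difference passed (limma, adjusted p = 0.874 and 0.452).

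Kcnk1 encodes TWIK-1, a channel with weak inward rectification. Control arrays ranged from 5.65 to 6.67, withdrawal arrays from 6.06 to 6.85, day 3 arrays from 5.55 to 6.27 and day 7 arrays from 6.30 to 6.93. The day 7 arrays lay above all day 3 arrays, with a difference of 0.74 ± 0.24 log2 that did not pass (limma, adjusted p = 0.493). No gene of the 21439 passed between day 7 and day 3 in this fit, while 1516 had an unadjusted p under 0.05, among them 3 members. Kcnk1, Kcnk9 and Kcnj5 were those 3, and the groups did not overlap for Kcnk1 and Kcnk9, against 3.56% of all genes.

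Kcnk2 encodes TREK-1, a channel gated by membrane stretch and lipids, which in bovine fasciculata cells sets the resting voltage and is closed by ACTH. Its control level was 3.55, 3.48, 4.14 and 3.73, and its withdrawal level 4.04, 4.10 and 3.90. Day 3 arrays ranged from 3.89 to 4.25 and day 7 arrays from 3.73 to 4.13. Control replicate 3 lay within or above the other groups, the group means spanned 0.31 log2, and no comparison passed. The difference of withdrawal from control was 0.29 (95% interval -0.02 to 0.61).

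**Figure D2:**
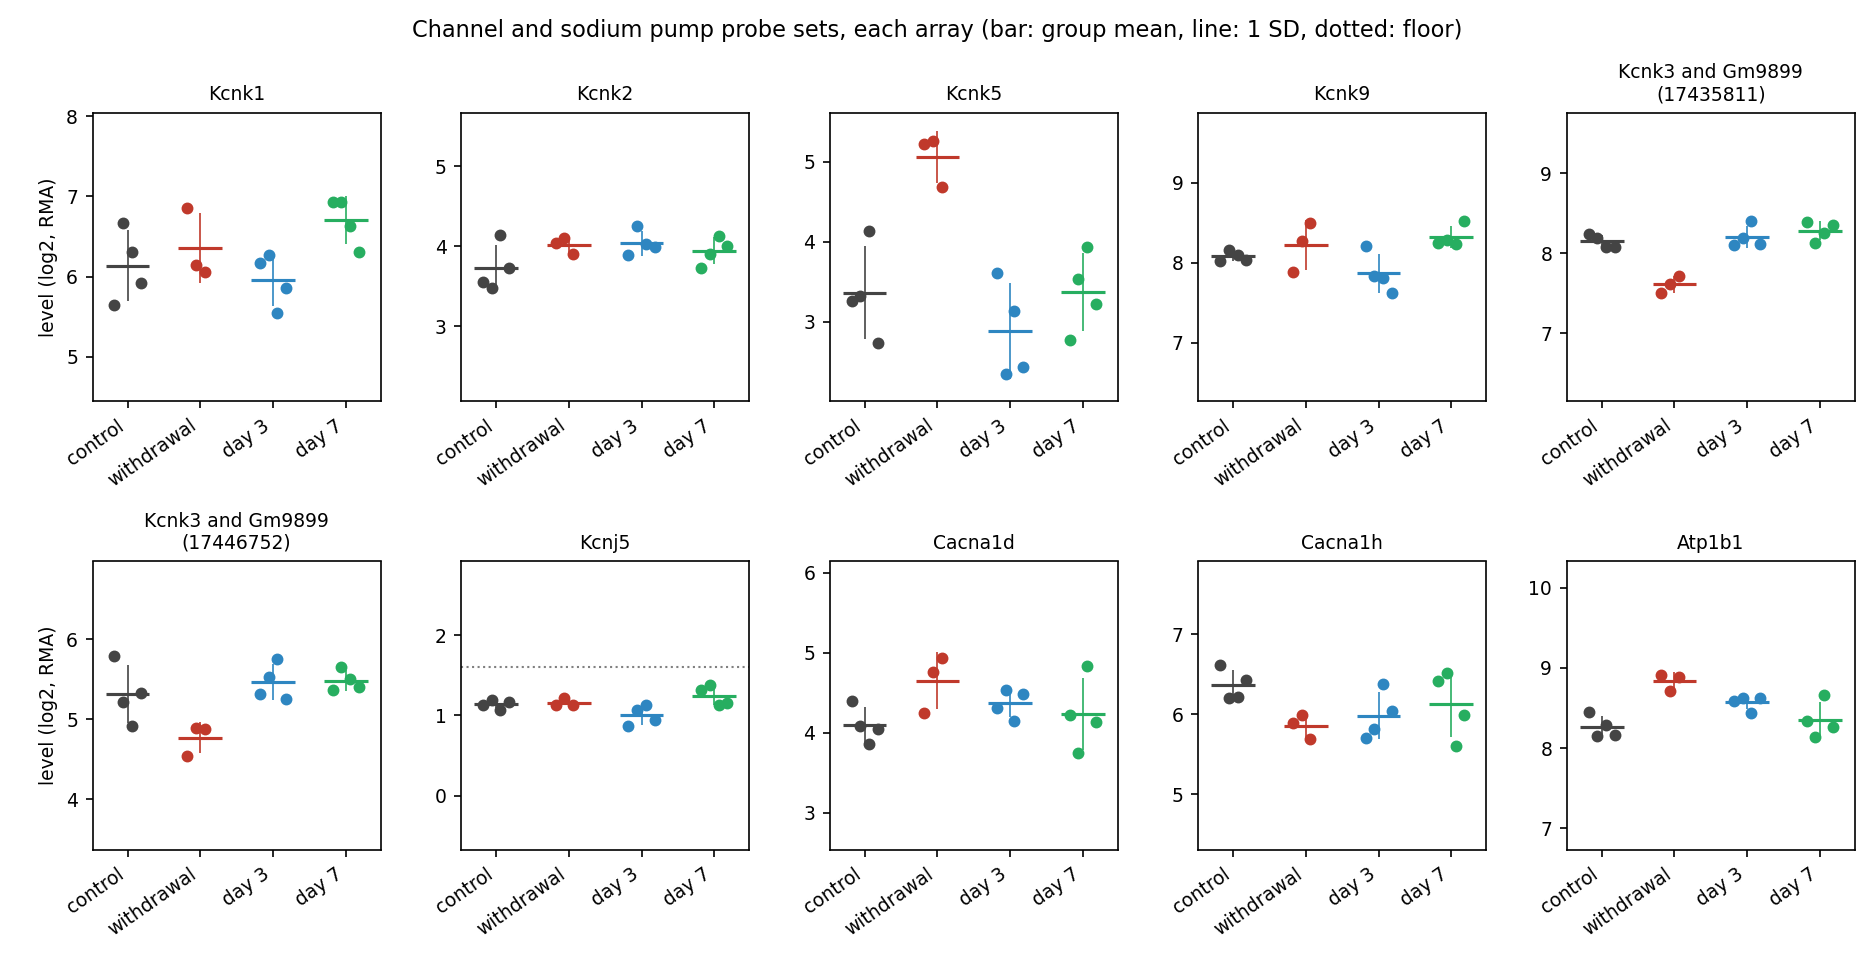
Each panel gives 1 probe set with a point per array, the group mean as a bar and 1 SD as a line; all panels span the same number of log2 units and the dotted line is the array floor. Kcnk5 is high in the 3 withdrawal arrays, Atp1b1 is above its controls there, and the shared probe set 17435811 is below them.

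Kcnk3 encodes TASK-1, the partner of TASK-3 in background current of glomerulosa cells, and was covered only through the probe sets shared with Gm9899. Probe set 17435811 read 8.24, 8.19, 8.08 and 8.08 in control and 7.50, 7.62 and 7.71 at withdrawal. At day 3 it read 8.10, 8.19, 8.40 and 8.11, and at day 7 it read 8.39, 8.13, 8.26 and 8.36. The 3 withdrawal arrays lay below all 12 others. The counting of genes with 1 symbol left these probe sets out, so they were tested in a fit of all 32736 probe sets together, chosen after the data were seen.

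In that fit, probe set 17435811 fell by 0.54 ± 0.10 log2 at withdrawal (1.45-fold lower; limma, adjusted p = 0.0112), where 2.47% of all probe sets passed. It rose by 0.59 ± 0.10 to day 3 (adjusted p = 0.0101, with 1.24% of probe sets passing). Day 7 lay 0.67 ± 0.10 above withdrawal (adjusted p = 0.00521, with 0.968% passing). Without withdrawal replicate 1 the difference from control had an adjusted p of 0.0546, and with only the 2 groups compared in the fit the 3 values were 0.058, 0.109 and 0.0677. Probe set 17446752 had a mean of 5.31 over the control arrays and 4.77 over the withdrawal arrays, then 5.46 and 5.48 on the recovery days. Its withdrawal arrays also lay below all others, with differences of -0.54, 0.69 and 0.71 and adjusted p of 0.155, 0.0875 and 0.0882 that did not pass. With dim probe sets left out, the differences of day 3 and day 7 from withdrawal passed (limma, adjusted p = 0.0401 and 0.0402). Neither could be assigned to the channel or to the non-coding RNA.

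Kcnj5 read 1.13, 1.20, 1.07 and 1.16 in control and 1.13, 1.21 and 1.13 at withdrawal, while the day 3 arrays ran from 0.86 to 1.13 and the day 7 arrays from 1.13 to 1.38. Its group means lay 0.35 to 0.60 log2 under the floor, where a fall has no room to show. Of the 13 other inward rectifier genes measured, 3 had a group mean above the near-floor limit: Kcnj8 with 5.04 in control, Kcnj10 with 3.07 and Kcnj2 with 3.02. Kcnj3, which forms channels together with the Kcnj5 protein, had 1.95 in control and 1.75 at withdrawal, near the floor. None of the 13 passed in any comparison.

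The calcium channels gave no difference that passed in any of the 6 comparisons. Cacna1h encodes the T-type channel Cav3.2, which opens at small depolarisations and carries calcium into glomerulosa cells. Its control arrays stood at 6.61, 6.20, 6.21 and 6.42 and its withdrawal arrays at 5.89, 5.99 and 5.69, so that the groups did not overlap. At day 3 it was 5.70, 5.82, 6.37 and 6.04, and at day 7 it was 6.42, 6.52, 5.60 and 5.99, each spread over both ranges. The difference of withdrawal from control was -0.51 ± 0.21 log2 (95% interval -0.94 to -0.07; limma, adjusted p = 0.213).

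Cacna1d encodes the L-type channel Cav1.3, which also opens at low voltage. Control arrays read 4.40, 4.08, 3.86 and 4.04, and withdrawal arrays 4.25, 4.76 and 4.93. Withdrawal replicate 1 lay below the highest control, so that the groups overlapped. Day 3 arrays ran from 4.15 to 4.54 and day 7 arrays from 3.74 to 4.83. The difference of withdrawal from control was 0.56 ± 0.22 log2 (95% interval 0.09 to 1.02; limma, adjusted p = 0.198). Of 17 other voltage-gated calcium channel subunit genes measured, 7 lay above the near-floor limit in some group, and none passed. With dim genes left out 1 of them was lower at day 7 than at withdrawal. Without day 3 replicate 3, 1 was lower at day 3 than at withdrawal. Cacna2d1, an auxiliary subunit, had 8.05 in control and 8.12 at withdrawal, Cacnb2 had 6.84 and 7.18, and the L-type pore Cacna1c had 5.94 and 6.26.

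Atp1b1 encodes the beta subunit that carries the catalytic subunit of the sodium pump to the membrane; the pump keeps up the potassium gradient through which the channels act. Its control arrays were at 8.45, 8.16, 8.28 and 8.16 and its withdrawal arrays at 8.92, 8.71 and 8.89, with no overlap. Day 3 arrays were at 8.59, 8.62, 8.44 and 8.62, below all withdrawal arrays, and day 7 arrays were at 8.34, 8.14, 8.66 and 8.26. Only day 7 replicate 3, at 8.66, stood near the withdrawal level.

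The mean of Atp1b1 rose from 8.26 ± 0.14 (SD, n = 4) to 8.84 ± 0.11 (n = 3), by 0.57 ± 0.12 log2 (SE; limma, adjusted p = 0.0146). Without withdrawal replicate 1 the difference was 0.53 and the adjusted p was 0.06. Day 7, at 8.35 ± 0.22 (n = 4), lay 0.49 ± 0.12 log2 under withdrawal and did not pass (limma, adjusted p = 0.0558), while without day 7 replicate 3 that difference was -0.59 and its adjusted p was 0.012. It also passed after quantile normalization, with dim genes left out and with trended, robust moderation (limma, adjusted p = 0.0265, 0.0305 and 0.0207). Day 3, at 8.57 ± 0.09 (n = 4), differed from withdrawal by -0.27 and from control by 0.31, neither past the threshold (limma, adjusted p = 0.339 and 0.358).

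From withdrawal to day 3, 1 of 8 members passed, Kcnk5, which was lower, where 2.25% of all genes passed and 0.886% were lower. From withdrawal to day 7 it was again Kcnk5 alone of the 8, where 1.88% passed and 0.905% were lower. Shared probe set 17435811, outside these counts, was higher in both comparisons in its separate fit. The groups did not overlap for 2 members in each, against 12.1% and 12.3% of all genes. With each array centred on its median, the split of all genes between day 7 and withdrawal moved from 210 higher and 194 lower to 391 and 134. Against control, 0 of 8 members passed at day 3 and 0 at day 7 (limma), where 0.131% and 0.0187% of all genes passed. An unadjusted p under 0.05 was found for 2 and 1 members, and for 2153 and 1275 of all 21439 genes. Groups did not overlap for 0 and 1 members there, against 5.20% and 3.15%. Between day 3 and control the split of all genes was 19 higher and 9 lower, 12 and 11 with quantile normalization, and 18 and 35 with centred arrays. The comparisons share arrays, and the 3 with withdrawal all rest on the same 3 arrays.

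**Figure D3:**
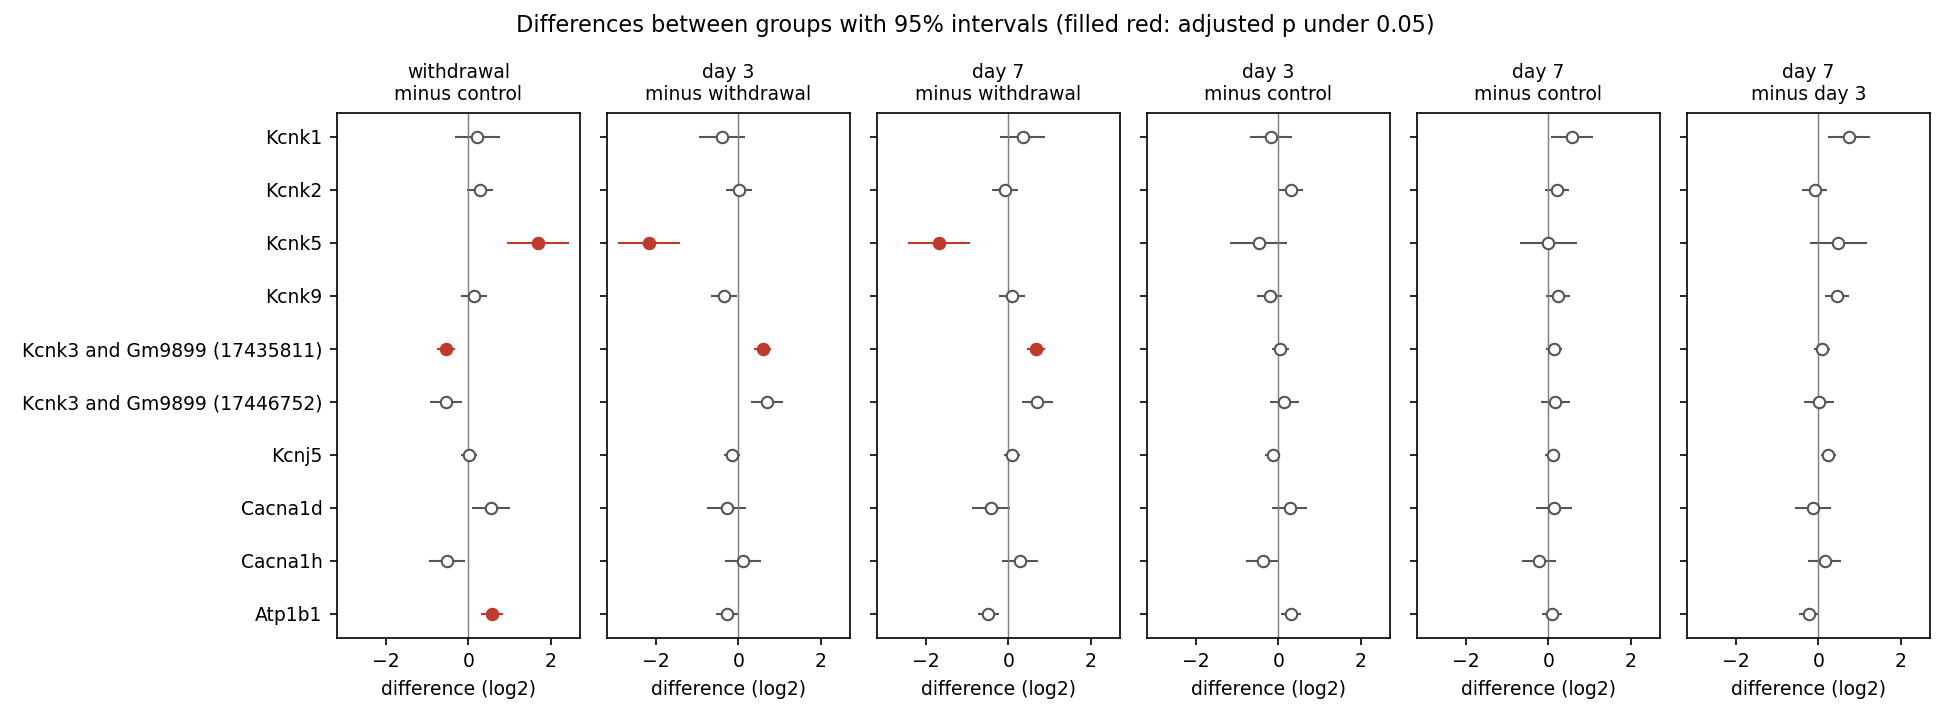
Differences in log2 level between groups for each channel probe set, as points with 95% intervals from limma and filled where the adjusted p was under 0.05. The withdrawal comparisons of Kcnk5 are the largest, at 1.69, -2.17 and -1.69, and its difference of day 7 from control is at 0.00.

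Among channels that were not members, the clearest difference was in Kcnd2, which encodes a pore of the rapidly inactivating A-type potassium current. Its control arrays ran from 4.62 to 4.98, and its withdrawal arrays stood at 6.68, 6.46 and 6.36, above every array of the other groups. The mean rose by 1.70 ± 0.18 log2, or 3.26-fold (limma, adjusted p = 9.18e-05), and fell by 1.41 to day 3 (adjusted p = 0.000897). Day 7, with arrays from 5.04 to 5.52, lay 1.21 below withdrawal (limma, adjusted p = 0.00249).

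Kcna4, another pore of A-type current, read 8.60, 8.33, 8.66 and 8.28 in control and 8.04, 7.66 and 7.86 at withdrawal. It fell by 0.61 ± 0.13 log2 (limma, adjusted p = 0.0134), with an adjusted p of 0.0787 without withdrawal replicate 2 and 0.0645 with only the 2 groups compared in the fit. Day 7 lay 0.55 above withdrawal (limma, adjusted p = 0.0414), which passed in 1 of 7 fits without an array and not with the 2 groups alone (0.0825). A second probe set of Kcna4 lay near or at the floor, and the mean of both differed by -0.20 (adjusted p = 0.374). Of 29 voltage-gated and calcium-activated potassium channel genes measured, 10 lay above the near-floor limit in some group, and Kcnd2 and Kcna4 were the 2 that passed at withdrawal, against 4.30% of all genes. That count was 4 (3 higher and 1 lower) with dim genes left out, where 1238 genes of the smaller set passed and the 4.30% does not apply. It was 1 with the mean of all probe sets of a gene and 1 without withdrawal replicate 2. Kcne3, an accessory subunit near the floor, rose from 1.69 to 2.43 between withdrawal and day 3 (limma, adjusted p = 0.0249), and its adjusted p was 0.121 without withdrawal replicate 2 and 0.144 with only the 2 groups compared in the fit. Of the 9 other tandem-pore genes, Kcnk6 alone lay above that limit, with 2.61 in control and 2.71 at withdrawal, and none passed.

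Fxyd1, or phospholemman, a small regulator of the sodium pump, stood between 7.74 and 7.76 in control and at 8.44, 8.40 and 8.003 at withdrawal. It rose by 0.53 ± 0.13 log2 (limma, adjusted p = 0.0367), and this passed in 1 of 7 fits that left out an array, with the highest adjusted p of 0.149 without withdrawal replicate 2; with centred arrays it was 0.0644 and with the 2 groups alone 0.0683. Its fall of 0.76 ± 0.13 to day 3 passed in all 7 such fits (limma, adjusted p = 0.00777) but not with only the 2 groups compared (0.0996). It was the 1 gene of 9 measured sodium pump and FXYD genes that passed; Atp1b2 had 6.14 in control and 6.46 at withdrawal, and Atp1b3 had 8.13 and 8.16. Of 20 calcium pump, exchanger, store entry and release genes, 13 were above the near-floor limit and none passed. With centred arrays 1 of them passed at withdrawal, lower.

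Of 19 measured genes of calmodulin kinase signalling and aldosterone output, 2 rose at withdrawal and 1 fell, where 4.30% of all genes passed. With dim genes left out 5 of them passed, 4 higher and 1 lower, where 1238 genes of that smaller set passed. The 4.30% is not the share for that set. Without withdrawal replicate 1 it was also 5, 4 higher and 1 lower, where 613 of all genes passed. Cyp11b2, aldosterone synthase, had 8.64, 8.24, 8.29 and 8.03 in control and 8.89, 9.40 and 9.33 at withdrawal, a rise of 0.90 ± 0.16 log2 (limma, adjusted p = 0.0056). Vsnl1, a calcium-sensing protein of glomerulosa cells, rose by 0.72 ± 0.18 (limma, adjusted p = 0.0298), which passed in 2 of 7 fits without an array and neither with centred arrays (0.0643) nor with the 2 groups alone (0.0579). It fell by 1.02 to day 3 (limma, adjusted p = 0.00674), which passed in all 7 such fits but not with the 2 groups alone (0.0831). Clcn2, a chloride channel whose human gene is mutated in familial aldosterone excess, went from 5.71 to 6.25 in control to 5.29, 4.68 and 5.01 at withdrawal. It fell by 0.95 ± 0.18 (limma, adjusted p = 0.00678), which passed in all 7 fits without an array, and day 7 lay 0.76 above withdrawal (adjusted p = 0.0389), which passed in 1 of 7 and not with the 2 groups alone (0.0700). Agtr1b, an angiotensin II receptor of rodents, fell by 0.86 ± 0.18 from withdrawal to day 3 (limma, adjusted p = 0.0233), with 0.119 without withdrawal replicate 2 and 0.156 with the 2 groups alone. The kinase genes Camk1, Camk1d, Camk4 and Camk2d and the transcription factors Nr4a1, Nr4a2 and Nr4a3 did not pass.

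**Figure D4:**
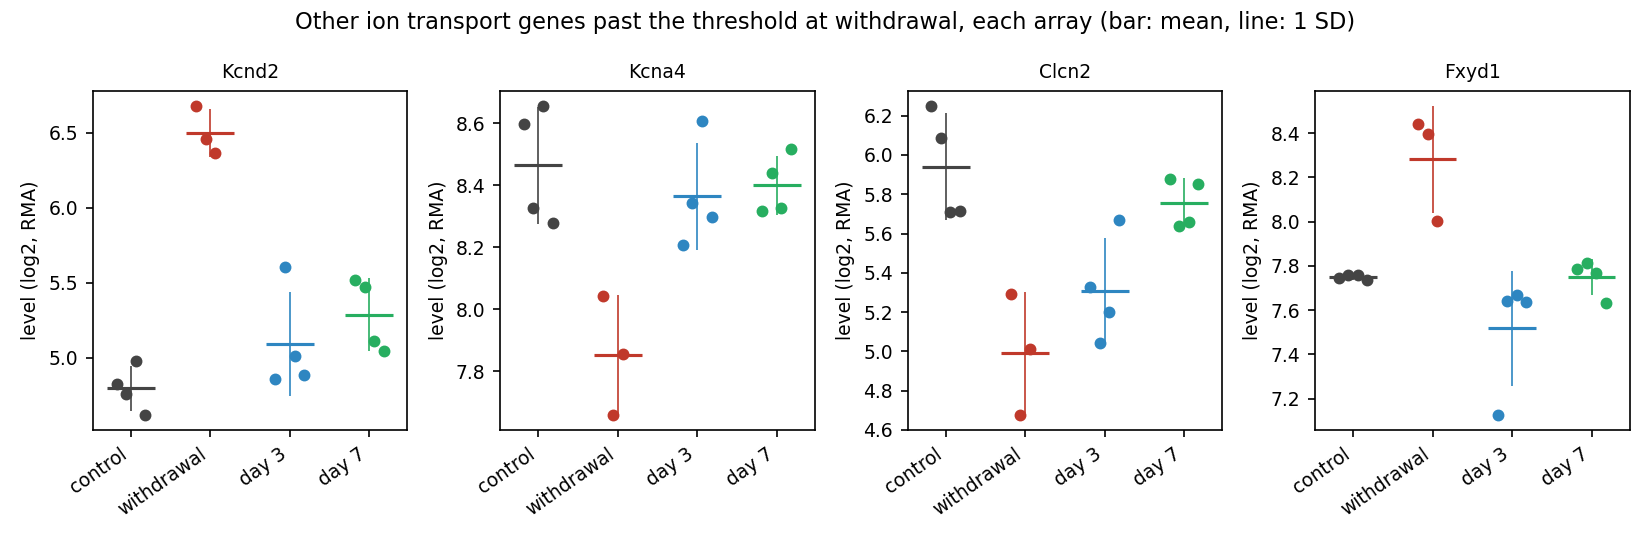
Log2 levels of 4 ion transport genes outside the member list that passed at withdrawal, with a point per array, a bar at the group mean and a line for 1 SD; each panel has its own axis range. Kcnd2 stands at 6.36 to 6.68 in the withdrawal arrays against 4.62 to 4.98 in control, Clcn2 and Kcna4 are lower there, and Fxyd1 is higher.

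Markers of several cell types differed between the same groups. The mean log2 level of 13 zona glomerulosa genes ran from 5.46 to 5.52 over the control arrays and from 5.98 to 6.17 over the withdrawal arrays, then from 5.45 to 5.67 and from 5.63 to 5.84 on the recovery days, and 6 of 13 were higher at withdrawal. Cyp11b2, Vsnl1 and Agtr1b belong to this list as well as to the aldosterone output list above. The 9 zona fasciculata genes went from 9.71 to 9.74 in control to 8.72 to 8.89 at withdrawal, with 7 of 9 lower. Across the 15 arrays Kcnk5 correlated with these lists at r = 0.81 and -0.82, and at 0.35 and -0.13 after group means were removed. Probe set 17435811 correlated with the fasciculata list at 0.90 and, within groups, at 0.78. Its r with the glomerulosa list was -0.72, and 0.10 within groups. The second shared probe set, 17446752, had 0.73 with the fasciculata list but 0.18 within groups. With the glomerulosa list it had -0.49, and 0.61 within groups. The 10 endothelium genes had a mean of 6.69 to 6.88 in control and 6.41 to 6.44 at withdrawal, with no overlap and 1 of 10 lower. That list correlated with probe set 17435811 at 0.83 and with Kcnk5 at -0.72, and within groups at 0.23 and 0.02. The 9 capsule and fibroblast genes, at 6.14 to 6.36 in control and 6.39 to 6.65 at withdrawal with 0 of 9 past the threshold, correlated with Kcnk5 at 0.71 and, within groups, at 0.02, and with probe set 17435811 at -0.73 and 0.19.

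The 11 macrophage genes stood at 5.21 to 5.42 in control and 6.84 to 7.31 at withdrawal, with 10 of 11 higher, and the 16 measured chromaffin genes of the medulla at 7.58 to 8.05 and 8.26 to 8.45, with 4 of 16 higher. Atp1b1 correlated with the chromaffin list at r = 0.82 and, within groups, at 0.71, and with the macrophage list at 0.84 and 0.50. Its correlation with the 7 measured Schwann and glial genes was also 0.84, and 0.47 within groups; that list stood at 2.95 to 3.22 in control and 3.38 to 3.85 at withdrawal, with 0 of 7 past the threshold and Sox10 at the floor. With the endothelium list Atp1b1 had -0.73, and -0.48 within groups, and with the fasciculata list -0.73 and 0.09. With the glomerulosa list it had 0.54, and -0.46 within groups. Cacna1d and Cacna1h had r = 0.76 and -0.68 with the chromaffin list, and 0.63 and -0.55 within groups. With the macrophage list they had 0.70 and -0.68, and 0.59 and -0.48 within groups. With the endothelium list they had -0.64 and 0.48, and -0.53 and 0.40 within groups. Kcnk2 had 0.69 with the chromaffin list and 0.64 with the macrophage list, and 0.67 and 0.50 within groups. All arrays share a gland's mixture of cells, so these values describe the arrays, and the part of each cell type in the results was not tested. The 7 measured kidney genes lay at the floor in every group, and so did Mc5r and Oprm1 of the glomerulosa list.

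**Figure D5:**
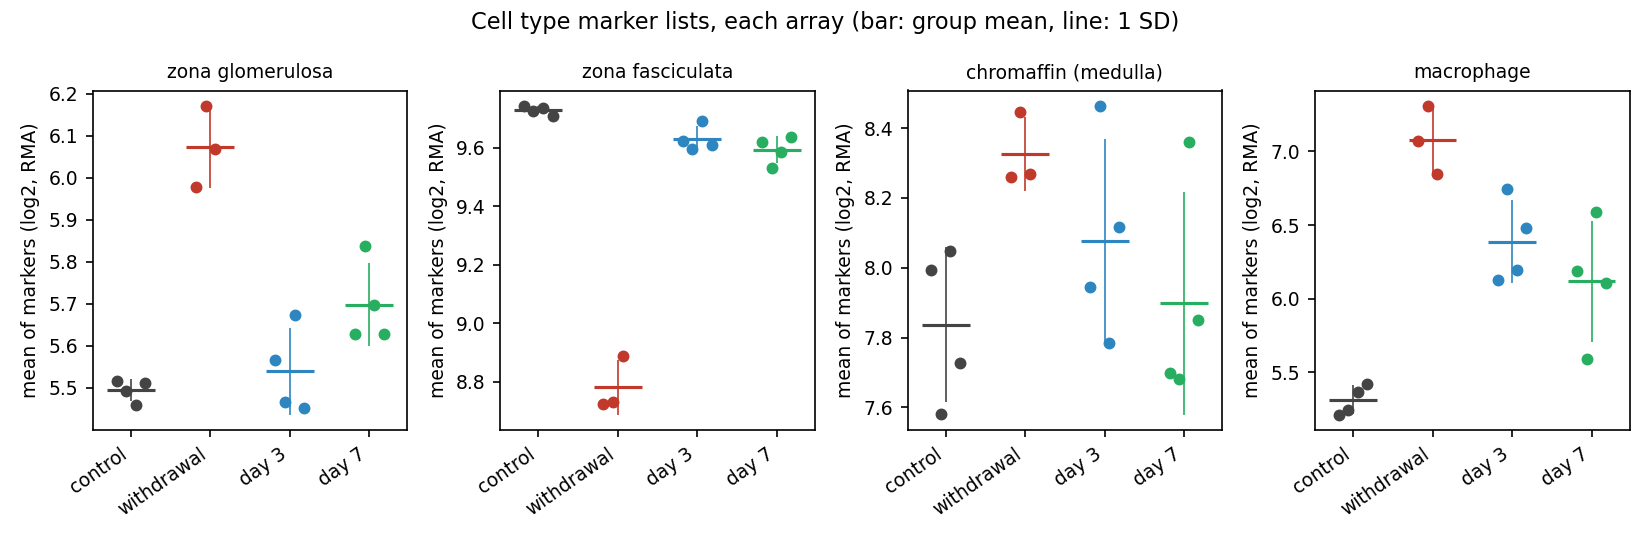
Mean log2 level of 4 cell type marker lists, with a point per array, a bar at the group mean and a line for 1 SD; each panel has its own axis range. The withdrawal arrays are high for zona glomerulosa and macrophage genes and low for zona fasciculata genes, while chromaffin genes overlap between withdrawal and the recovery days.

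Genes above the near-floor limit in at least 1 group were searched, leaving out classes such as predicted genes, clone names, microRNA, olfactory receptor and immunoglobulin genes. Among these 10394 genes, those with the highest Pearson correlation with each member over the 15 arrays were listed as a description. For Kcnk5 they were Tiparp at r = 0.90, Asb3 at 0.89 and Resf1 at 0.86, and for Atp1b1 they were Smpd3 at 0.94, Prkcb at 0.91 and Lgr5 at 0.91. Within groups the values were 0.68, 0.66 and 0.37 for Kcnk5, and 0.87, 0.70 and 0.68 for Atp1b1. Prkcb was also near the top for Cacna1d, at 0.85, after Acsl6 at 0.90. Kcnk2 was most like Piezo1 (0.87), Kcnk1 like Spata33 (0.85), Kcnk9 like Slc2a4 (0.82) and Cacna1h like Pdlim2 (0.86). Among the members themselves, Cacna1d and Atp1b1 had r = 0.79, and 0.69 within groups, while Cacna1h and Atp1b1 had r = -0.70.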

How the data were processed

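The authors deposited log2 values, made by RMA with oligo, per the submitters' processing notes; for versions, annotation and array build, nothing is stated in the sources used here. Values ran from -0.19 to 12.1 and array medians from 1.55 to 1.64. Of 32736 probe sets, 22399 carried 1 symbol, 1607 several and 8730 none; 22261 matched RefSeq by Entrez identifier and 138 did not. For 807 genes with several probe sets the one with the highest mean was kept, leaving 21439 genes. The test was limma (version 3.58.1, R 4.3.3), in 1 model of 4 groups, with Benjamini-Hochberg adjustment over all genes and a threshold of 0.05. The code was tested on simulated data. The mean correlation of an array with its group was 0.987 to 0.991, and 0 arrays were identical. The number of arrays limits the precision. Promoter sequences are from RefSeq, GRCm38.p6. The members and lists were chosen with earlier results of these data known. Genes outside the member list are named where they passed in a comparison, plus examples of each list chosen after their values were seen; the 3 genes most like each member were taken by correlation. Alternatives covered normalization, dim genes, choice of probe set, variance model, array weights, replicate block, the groups in the fit and each array left out.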

Additional observations from a re-analysis of the deposited data

Results flagged for a closer look

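In 30 groups of 4 arrays, 2 had 1 array farther from the rest than Dixon's 95% limit allows, and chance gives about 5% of such groups. Kcnk9 read 8.52 in day 7 replicate 4, above the other day 7 arrays at 8.23 to 8.28. Atp1b1 read 8.44 in day 3 replicate 3, below the other day 3 arrays at 8.59 to 8.62.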

How the results depend on the processing

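Of 834 alternative values for 48 member differences, 802 kept direction and side of the threshold, 8 lost the call, 4 gained it and 20 changed sign. The cause of these changes was not tested, except that fits with fewer arrays have fewer degrees of freedom. For day 7 against withdrawal, 2 members passed after quantile normalization, 2 with dim genes left out and 2 with trended, robust moderation, and the F test gave 2 members under each of these. Centred arrays gave 53 genes for day 3 against control. With dim genes left out 645 genes passed for day 7 against withdrawal, 75 for day 3 against control and 2 for day 7 against day 3. Trended, robust moderation gave 91 genes for day 3 and 2 for day 7 against control, and array weights gave 2 for day 7 against day 3. After group means were removed, same-numbered arrays of different groups correlated at -0.14 to 0.06 over 21 pairs. Their median was -0.04, against 0.01 for differently numbered arrays. A correlation over all genes cannot settle whether the numbers pair the arrays. The replicate block gave 544, 257 and 221 genes for withdrawal against control, day 3 and day 7 against withdrawal, then 4 and 0 for day 3 and day 7 against control, and 0 members for day 7 against withdrawal. Only the 2 groups compared gave 524, 161, 154, 9 and 0 genes; the F test was not run there. Kcnk5 at day 7 against control was -0.0542 after quantile normalization, -0.0359 centred and -0.0443 with array weights, and Kcnj5 at withdrawal was -0.0930 centred; Kcnj5 has no value with dim genes left out. Without 1 array, members passing ranged from 0 to 2 at withdrawal, 0 to 2 for day 7 against withdrawal and 0 to 2 in the F test, and all genes from 459 to 774, 209 to 389, 200 to 415, 6 to 27, 0 to 9 and 0 to 7 over the 6 comparisons. Signs changed for Kcnk1 (-0.0338 to 0.39) and Kcnj5 (-0.0084 to 0.0377) at withdrawal, Kcnk2 (-0.0509 to 0.0706) and Cacna1h (-0.00225 to 0.22) from withdrawal to day 3, Kcnk9 (-0.0679 to 0.24) to day 7, Kcnk1 (-0.34 to 0.00169) at day 3 against control, Kcnk5 (-0.21 to 0.26), Cacna1d (-0.0584 to 0.30) and Atp1b1 (-0.0178 to 0.16) at day 7 against control, Cacna1d (-0.33 to 0.0275) between day 7 and day 3, and probe sets 17435811 (-0.0141 to 0.0864) at day 3 against control and 17446752 (-0.0547 to 0.11) between day 7 and day 3.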
